A study of Mus musculus with 4 samples.

Results

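The levels of 10 genes of the simple epithelial cytoskeleton and of cell junctions were followed in Dalton's lymphoma ascites (DLA) cells, a mouse tumour passed on by transplantation, whose cells float in ascitic fluid. They were the keratins Krt7, Krt8, Krt18 and Krt19, the surface and junction genes Epcam, Cdh1, Cldn4, Cldn7 and Ocln, and the intermediate filament gene Vim. They were chosen by name, and all 10 were measured, each by 1 probe set, among 19938 genes named on the arrays. Irradiated DLA cells came from male Swiss albino mice that were 4 to 5 months old, had received an implant of DLA cells in the peritoneal cavity and were exposed over the whole body to 2 Gy of electrons 8 days later, with collection at 48 h. Control DLA cells came from mice of the same kind with the same transplant that were not irradiated. Each group had 2 arrays, labelled biological replicates 1 and 2, and the labels do not say whether an array stands for 1 mouse or for pooled mice. No sorting of the collected cells is described, so host cells of the cavity may be among them. Tumour and host were irradiated together, and effects on the cells and effects through the host cannot be told apart.

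Keratins form the intermediate filaments of epithelial cells from pairs of a type I and a type II protein. Krt8 (type II) and Krt18 (type I) are the pair of simple, single-layered epithelia, where Krt7 (type II) and Krt19 (type I) often join them. Epithelial cells hold together through E-cadherin, which Cdh1 encodes, and seal the space between them with tight junctions built from claudins and occludin. Vimentin is the intermediate filament protein of mesenchymal and blood cells, and lymphocytes normally have vimentin and no simple keratins. Mesothelial cells, which line the peritoneal cavity, have both.

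In untreated DLA cells the 4 simple keratins and Vim had some of the strongest signals on the array, whereas Cdh1, Cldn7 and Ocln lay below the median gene. In irradiated cells all 4 keratins, Epcam and Cldn7 were lower on both arrays than on both controls, Cldn4 was higher, and Cdh1, Ocln and Vim overlapped. Over all genes, both irradiated arrays lay below both controls for 23.9% and above for 17.8%. Irradiated means were lower for 9 of the 10 genes and for 56.0% of all genes. For each of the 4 keratins and Epcam, irradiated replicate 2 lay further below the controls than replicate 1. The genes were chosen with earlier results of these arrays known, so their levels and differences are given as descriptions and carry no test of their own.

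Values are log2 probe set signals after RMA, a procedure that corrects background, gives all arrays a common distribution and summarises the probes of a probe set. A difference of 1 is 2-fold. Each probe set has its own affinity, so signals of different genes do not rank their messenger RNA, and the place of a signal among all genes says only how bright the probe set was. Array medians over all probe sets ran from 6.43 to 6.46. Over the 19938 genes they were 6.71 and 6.64 for irradiated replicates 1 and 2, and 6.70 and 6.72 for the controls. Across 19938 genes the difference between replicates had an SD of 0.36 for the irradiated arrays and 0.17 for the control arrays. Differences are therefore also given without irradiated replicate 2. Fewer cells of a type and less RNA per cell cannot be told apart in these bulk samples.

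Krt7, the type II keratin of many simple epithelia and of ducts, measured 11.84 and 10.62 in irradiated cells, against 12.48 and 12.36 in control cells. Both irradiated arrays lay below both controls, and replicate 2 was the lower by 1.22. The mean was 11.23 ± 0.86 in irradiated and 12.42 ± 0.08 in control cells (SD, n = 2 each), a log2 difference of −1.19 with a standard error of 0.39 in limma, or 2.28-fold lower. Irradiated replicate 1 alone was 0.58 below the control mean, so the difference was −0.58 without replicate 2 and −1.80 without replicate 1. In control cells its signal was brighter than that of 99.0% of genes.

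Krt8, the type II partner of simple epithelia, measured 13.93 and 13.30 in irradiated cells, against 14.07 and 14.11 in control cells. Its control mean had rank 8 among 19938 genes. The irradiated arrays were lower without overlap, although replicate 1 lay only 0.16 below the control mean. The difference was −0.475 (standard error 0.22), or 1.39-fold lower, and −0.79 without irradiated replicate 1.

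Krt18, the type I partner of Krt8, measured 12.99 and 12.64 in irradiated cells, against 13.45 and 13.38 in control cells. It was the keratin with the smallest gap between irradiated replicates, 0.35. Its mean was 12.82 ± 0.25 in irradiated and 13.42 ± 0.05 in control cells (SD, n = 2 each). The difference was −0.60 (standard error 0.15), or 1.52-fold lower, with −0.425 when irradiated replicate 2 was left out and −0.775 when replicate 1 was.

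Krt19, a type I keratin that lacks most of the usual tail, measured 12.24 and 11.16 in irradiated cells, against 12.55 and 12.58 in control cells. The irradiated arrays lay 1.08 apart, whereas the controls lay 0.03 apart. The difference was −0.865 (standard error 0.34), or 1.82-fold lower. Most of it came from irradiated replicate 2, since it was −0.325 without that array and −1.405 without replicate 1.

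**Figure D1:**
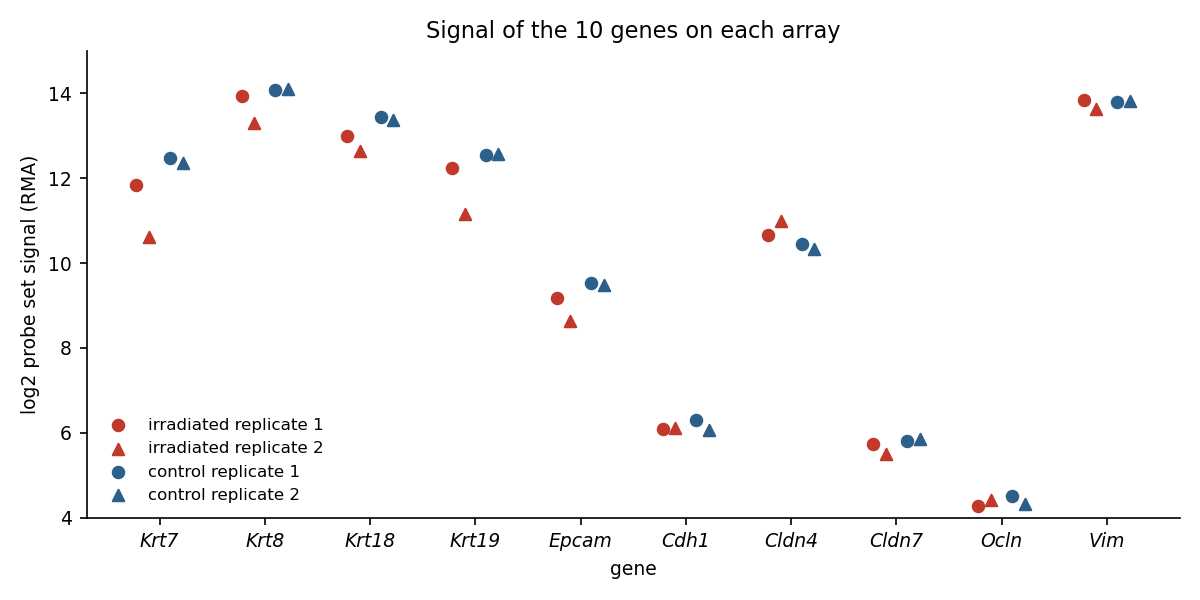
Log2 probe set signal (y axis) of the 10 genes (x axis) on each array, irradiated in red at the left of each gene and control in blue at the right, circles for replicate 1 and triangles for replicate 2. The keratins Krt7 and Krt19 measured 10.62 and 11.16 on irradiated replicate 2, against at least 12.36 on the control arrays, while Vim lies between 13.62 and 13.85 on all 4.

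The 4 keratins did not differ by the same amount. Within each array the signal of Krt7 minus that of Krt8 was −2.09 and −2.68 in irradiated cells, against −1.59 and −1.75 in control cells, without overlap. The signal of Krt8 minus that of its partner Krt18 was 0.94 and 0.66 in irradiated cells, against 0.62 and 0.73 in control cells, and these values overlapped. Against Vim, which is also bright, Krt7 stood at −2.01 and −3.0 in irradiated cells and at −1.31 and −1.45 in control cells. The same comparison gave −0.86 and −0.98 in irradiated cells for Krt18, and −0.34 and −0.43 in control cells. For Krt7, Krt8 and Krt19 the gap between the irradiated replicates, 1.22, 0.63 and 1.08, exceeded the mean difference between groups, whereas for Krt18 and Epcam it was smaller, 0.35 and 0.54. The summed signal of the 4 keratins on the linear scale was 32247 and 20330 in irradiated cells, against 40099 and 39722 in control cells.

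Of the 4 keratin genes, 3 lie close together on chromosome 15 of the mouse assembly GRCm38.p6. Krt7 spans positions 101412403 to 101427806, Krt8 positions 101996711 to 102004342 and Krt18 positions 102028216 to 102032026, so the 3 fit in 619624 bases, and 23873 bases separate Krt8 from Krt18. Krt19 lies apart on chromosome 11, from 100140810 to 100145926. RefSeq promoters of GRCm38.p6 were found for 8 of the 10 genes, and Cdh1 and Krt19 were not in the table. The 250 bases before the start of 5 genes are printed 5′ to 3′ along the gene. They are the 3 keratin genes of chromosome 15 and Epcam, which were lower in irradiated cells, and Cldn4, which was higher. Capitals mark CACCTG on either strand, the E-box that the repressors Snai1, Zeb1 and Zeb2 are known to bind in the Cdh1 promoter, and TGANTCA, the element known to be bound by AP-1. Both motifs were chosen after the sequences were seen, and no marked pair overlaps.
Krt7 (chr15:101412153-101412402, plus strand): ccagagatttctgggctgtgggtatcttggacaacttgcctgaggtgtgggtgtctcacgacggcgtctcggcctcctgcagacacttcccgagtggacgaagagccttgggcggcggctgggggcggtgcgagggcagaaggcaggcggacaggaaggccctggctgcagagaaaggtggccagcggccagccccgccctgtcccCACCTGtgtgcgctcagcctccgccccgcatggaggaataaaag
Krt8 (chr15:102004343-102004592, minus strand): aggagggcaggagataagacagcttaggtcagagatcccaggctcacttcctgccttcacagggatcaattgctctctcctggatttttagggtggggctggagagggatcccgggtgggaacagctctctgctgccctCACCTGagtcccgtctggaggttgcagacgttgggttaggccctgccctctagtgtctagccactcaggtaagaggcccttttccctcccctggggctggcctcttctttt
Krt18 (chr15:102027966-102028215, plus strand): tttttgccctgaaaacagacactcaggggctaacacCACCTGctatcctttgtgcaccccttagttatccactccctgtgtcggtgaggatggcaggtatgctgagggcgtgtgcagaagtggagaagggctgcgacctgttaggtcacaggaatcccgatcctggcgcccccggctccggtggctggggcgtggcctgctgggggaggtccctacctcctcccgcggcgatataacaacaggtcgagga
Epcam (chr17:87635729-87635978, plus strand): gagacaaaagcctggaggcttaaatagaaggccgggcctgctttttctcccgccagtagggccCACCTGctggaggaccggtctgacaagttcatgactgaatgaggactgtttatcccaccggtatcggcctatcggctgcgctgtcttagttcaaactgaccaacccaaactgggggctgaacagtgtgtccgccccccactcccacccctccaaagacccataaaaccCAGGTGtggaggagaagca
Cldn4 (chr5:134946935-134947184, minus strand): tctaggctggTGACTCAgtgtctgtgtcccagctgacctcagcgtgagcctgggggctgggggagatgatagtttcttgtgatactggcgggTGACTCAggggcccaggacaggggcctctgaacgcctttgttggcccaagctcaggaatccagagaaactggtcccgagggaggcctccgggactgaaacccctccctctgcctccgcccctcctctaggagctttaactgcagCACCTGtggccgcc
CACCTG was present in 7 of the 10 promoters of these 8 genes, where Cldn7 and Ocln have 2 promoters each, and in 17.2% of 32851 mouse promoters of the same length. It stood 44 bases before the start of Krt7, 111 before Krt8 and 214 before Krt18. Epcam has it at 187 and at 19 bases before the start. Cldn4, which was higher, has it at 14 bases before the start, and 1 of the 2 promoters each of Cldn7 and Ocln has it as well. TGANTCA was present in the promoter of Cldn4, at 240 and 158 bases before the start, in no other of the 10 promoters, and in 6.75% of all promoters. Nothing is read from these shares, since both motifs were chosen with these promoter sequences in view. A match of letters is not a site of binding, and the arrays did not measure binding.

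Epcam, which encodes an adhesion protein of the epithelial surface, was the junction or surface gene among the 10 with the largest difference. It measured 9.17 and 8.63 in irradiated cells, against 9.54 and 9.48 in control cells, without overlap. The mean was 8.90 ± 0.38 in irradiated and 9.51 ± 0.04 in control cells (SD, n = 2 each). The difference was −0.61 (standard error 0.20), or 1.53-fold lower, with −0.34 when irradiated replicate 2 was left out and −0.88 when replicate 1 was. In control cells its signal was brighter than that of 84.4% of genes.

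Cldn4, which encodes a claudin of epithelial tight junctions, ran the other way. It measured 10.66 and 10.99 in irradiated cells, against 10.44 and 10.33 in control cells, so both irradiated arrays lay above both controls. The difference was 0.44 (standard error 0.15), or 1.36-fold higher, with 0.275 when irradiated replicate 2 was left out and 0.605 when replicate 1 was. Within each array Epcam minus Cldn4 was −1.49 and −2.36 in irradiated cells, against −0.90 and −0.85 in control cells.

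The remaining junction genes had dim probe sets. Cdh1, the gene of E-cadherin, measured 6.09 and 6.11 in irradiated cells, against 6.30 and 6.08 in control cells, and the groups overlapped. Its control mean of 6.19 ± 0.16 (SD, n = 2) was brighter than 41.7% of genes, and the median over genes was 6.72. Ocln, which encodes occludin, measured 4.29 and 4.41 in irradiated cells, against 4.51 and 4.33 in control cells, also with overlap and brighter than 10.5% of genes in control cells. Cldn7, a claudin found along the sides of epithelial cells, measured 5.74 and 5.50 in irradiated cells, against 5.80 and 5.86 in control cells. Its arrays did not overlap, although irradiated replicate 1 lay only 0.09 below the control mean, and its difference was −0.21 (standard error 0.13). No background measure was used here, so these probe sets are called dim and not undetected, and a fold of a dim probe set is compressed by RMA.

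Vim measured 13.85 and 13.62 in irradiated cells, against 13.79 and 13.81 in control cells. The groups overlapped, and its mean was 13.74 ± 0.16 in irradiated and 13.80 ± 0.01 in control cells (SD, n = 2 each). Its control mean had rank 17 among 19938 genes. The difference was −0.065 (standard error 0.13), and it was 0.05 without irradiated replicate 2. Untreated DLA cells gave bright signals for the vimentin gene and for simple keratin genes in the same RNA.

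**Figure D2:**
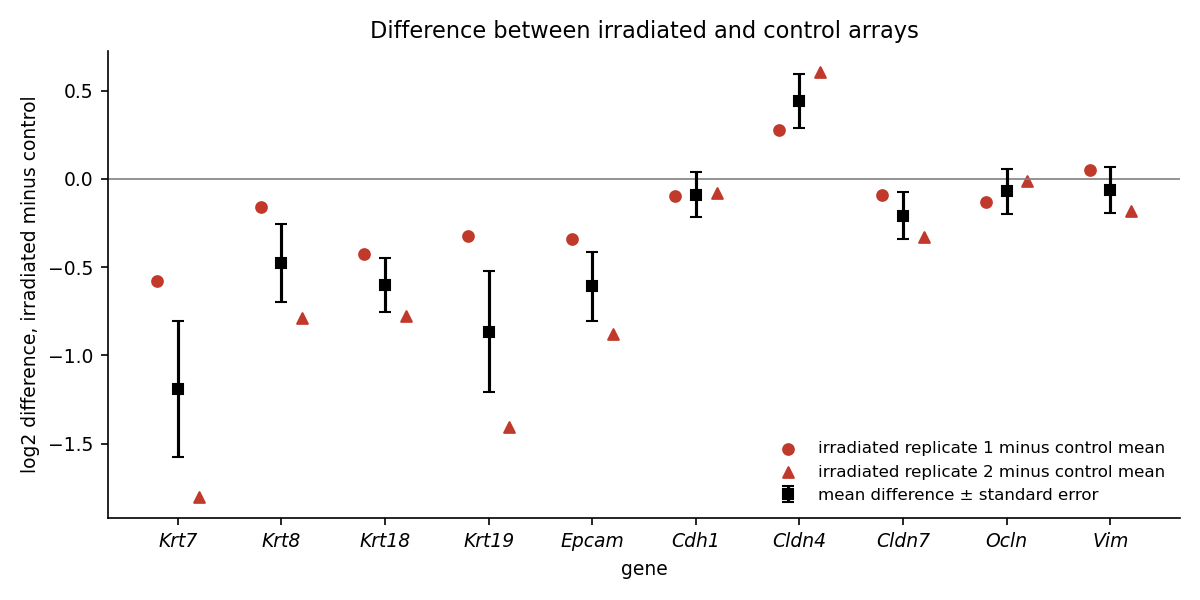
Log2 difference from the control mean (y axis) of the 10 genes (x axis), with irradiated replicate 1 as red circles, irradiated replicate 2 as red triangles, and the mean difference with its limma standard error as black squares and bars. Krt7 runs from −0.58 to −1.80 between the 2 irradiated arrays, and Cldn4 is above 0 on both.

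In the limma fit over all 19938 genes, 0 of the 10 passed an adjusted p of 0.05, where 0.00502% of all genes did. Their limma adjusted p-values ran from 0.38 for Krt18 to 0.89 for Vim, and 5 of the 10 had an unadjusted p under 0.05, against 10.3% of all genes. A looser rule asked for an unadjusted limma p under 0.05 together with a fold of 1.5 or more. By it, 4 were lower (Krt7, Krt18, Krt19 and Epcam) and 0 higher, where 2.37% of all genes passed, 0.672% lower and 1.7% higher. The count of 4 lower became 0 without irradiated replicate 2, since each was then short of 1.5-fold, and also 0 without either control array. It was 5, with Cldn4 higher, without irradiated replicate 1, and 2 (Krt7 and Krt19) with each array centred on its median. Both irradiated arrays lay below both controls for 6 of the 10 and for 23.9% of all genes, and above for 1 of the 10 and 17.8% of all genes. Irradiated means were lower for 9 of the 10 and 56.0% of all genes. The median difference was −0.34 over the 10 genes and −0.03 over all genes. Nothing is read from these shares, since the choice of the genes knew this comparison.

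The other keratin genes were dim and close to their controls. All 22 listed were measured, 20 of them below the median gene in control cells, and the brightest was Krt80, with a control mean of 7.93. They are mostly the keratins of stratified epithelia, such as Krt5, Krt14, Krt1 and Krt10, and a few of restricted sites, such as Krt20. Differences ran from −0.315 to 0.05 with a median of −0.08, and 0 genes passed the adjusted threshold or an unadjusted p under 0.05 in limma. Krt23 was the lowest, at 5.30 and 4.85 in irradiated cells, against 5.36 and 5.42 in control cells. Among 16 other intermediate filament genes and linkers, 7 were lower and 9 higher, with a median of 0.05. Of these, the lens filament gene Bfsp2 had the largest difference without overlap, at −0.18. Lmna, which encodes the A-type lamins of the nuclear lamina, measured 10.66 and 9.84 in irradiated cells, against 10.05 and 9.93 in control cells, with overlap.

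**Figure D3:**
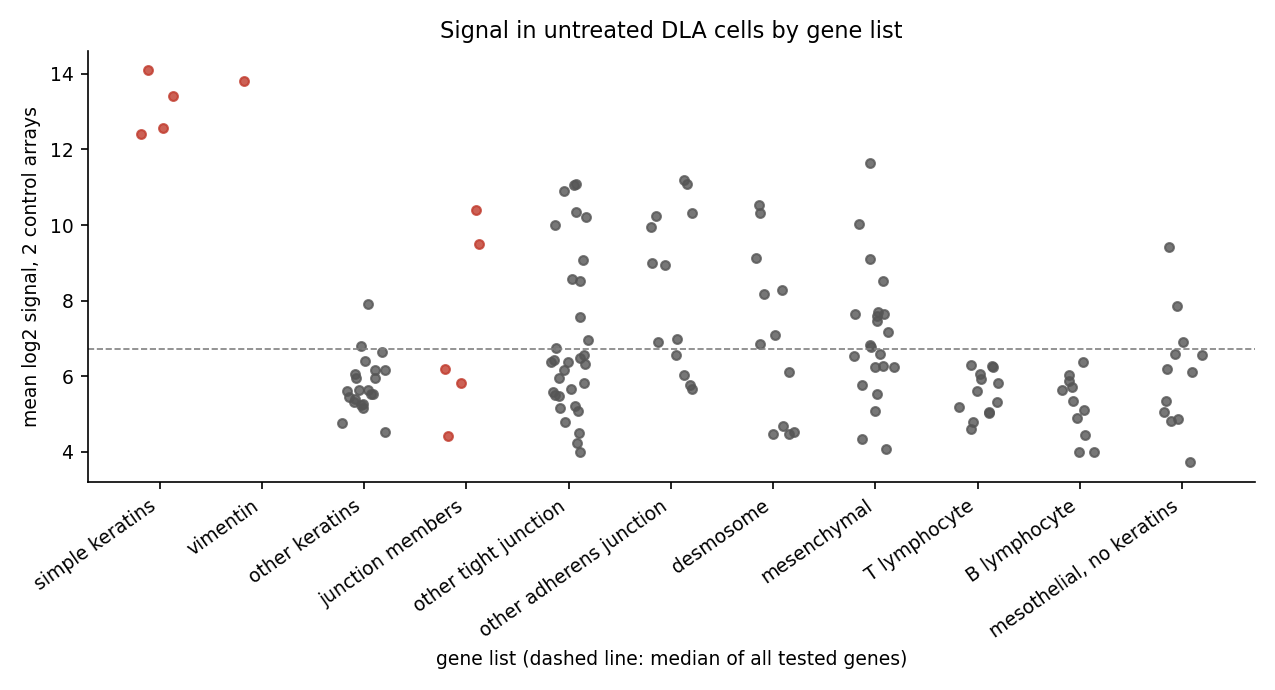
Mean log2 signal over the 2 control arrays (y axis) of single genes by list (x axis), with the 10 genes in red, other genes in grey and the median of all genes at 6.72 as a dashed line. Simple keratins and vimentin lie from 12.42 to 14.09, while the other keratins reach 7.93 and the T and B lymphocyte markers stay at or below 6.39.

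Of 34 tight junction genes listed outside the 10, 32 were measured. The irradiated mean was lower for 26 and higher for 6, where 56.0% of all genes were lower, and the median difference was −0.13, where it was −0.03 over all genes. Cldn12, a claudin, was lowest, at 9.48 and 9.11 in irradiated cells, against 10.19 and 10.26 in control cells, a difference of −0.93. Pard6b, a component of the cell polarity complex at the tight junction, measured 10.57 and 9.90 in irradiated cells, against 10.93 and 10.89 in control cells. Both had non-overlapping arrays and passed the looser rule, which 0.672% of all genes passed in that direction. In limma 0 of the 32 passed the adjusted threshold. An unadjusted limma p under 0.05 was found for 2 of the 32 and for 10.3% of all genes. Cldn6 and Tjp1, which encodes the scaffold protein ZO-1, were bright in control cells, with means of 10.34 and 11.08. Without irradiated replicate 2 the list median was −0.03, and −0.22 without irradiated replicate 1.

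Adherens junction genes other than Cdh1 were mixed, with 6 of 13 lower and 7 higher and a median of 0.01. Catenins tie cadherins to actin, and among their genes Ctnnb1, Ctnnd1 and Jup were bright, with control means of 11.08, 10.25 and 10.33, whereas Ctnna1, the gene of alpha-catenin, was near the median gene at 6.92. Ctnnb1 measured 11.18 and 11.29 in irradiated cells, against 11.08 and 11.07 in control cells. Cdh3, the gene of P-cadherin, stayed between 5.72 and 5.79 on all arrays. Ajuba, which encodes a LIM-domain protein of the junction, was the lowest, at 8.71 and 8.04 in irradiated cells, against 9.01 and 8.99 in control cells. Nectin2, an adhesion gene, had a difference of 0.29. In limma, 0 of the 13 passed the adjusted threshold and 1, Ajuba, had an unadjusted p under 0.05, where 10.3% of all genes did.

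Of 12 measured desmosome genes, 5 were higher and 7 were lower or, for Pkp2, equal, with a median of −0.01. Desmosomes anchor keratin filaments to the membrane. Dsp, the gene of the plaque protein desmoplakin, was bright, at 10.64 and 10.85 in irradiated cells, against 10.41 and 10.63 in control cells. The groups did not overlap, and the difference was 0.225. The desmosomal cadherin genes Dsg2 and Dsc2 were dim, with control means of 4.48 and 4.52. Perp, a membrane gene of desmosomes, measured 8.07 and 7.28 in irradiated cells, against 8.23 and 8.31 in control cells, a difference of −0.595. In limma, 0 of the 12 passed the adjusted threshold or an unadjusted p under 0.05, the latter found for 10.3% of all genes.

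Of 27 measured regulators of epithelial genes and genes of the epithelial surface, 18 had a lower and 9 a higher mean in irradiated cells, with a median difference of −0.09. Ezr, which encodes the membrane linker ezrin, differed by −0.53 and Esrp2, an epithelial splicing regulator, by −0.385, whereas the transcription factor genes Tfap2a and Grhl2 differed by 0.50 and 0.305. In limma 0 passed the adjusted threshold. An unadjusted limma p under 0.05 was found for 2 lower and 2 higher genes of the 27, and for 10.3% of all genes. Of 22 mesenchymal genes and repressors of Cdh1, 13 were higher and 9 were lower or, for Fap, equal, with a median of 0.025. Zeb1, which encodes a repressor of Cdh1, measured 7.75 and 8.10 in irradiated cells, against 7.64 and 7.63 in control cells. Snai1, another repressor gene, measured 9.72 and 9.01 in irradiated cells, against 9.06 and 9.16 in control cells, with overlap. S100a4 and the transcription factor gene Foxc2 were higher by 0.57 and 0.47. They were the 2 of 22 with an unadjusted limma p under 0.05, where 10.3% of all genes had one. The adjusted threshold was passed by 0.

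**Figure D4:**
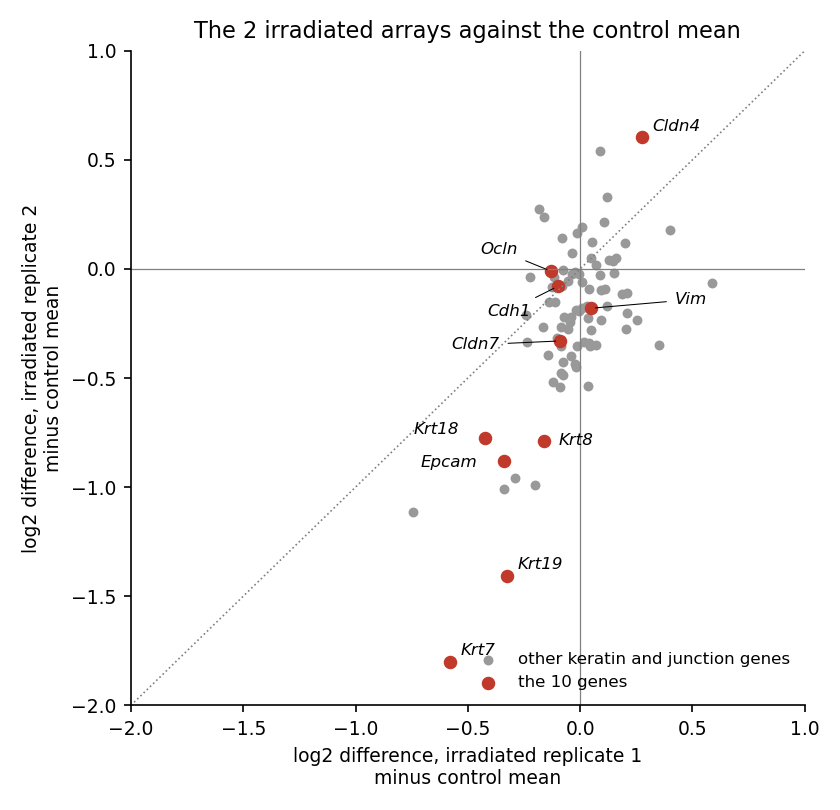
Log2 difference from the control mean on irradiated replicate 2 (y axis) against that on irradiated replicate 1 (x axis), with the 10 genes in red, the other keratin, tight junction, adherens junction and desmosome genes in grey, and equal change as a dotted line. The 4 keratins and Epcam lie below the dotted line in the lower left, with Krt7 at −0.58 and −1.80.

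The signals were set against markers of lymphocytes, since the tumour is called a lymphoma, and of host cells. Of 13 measured T lymphocyte markers and 11 measured B lymphocyte markers, none of either list reached the median gene in control cells. Cd3e, part of the T cell receptor complex, measured 6.17 and 6.01 in irradiated cells, against 6.23 and 6.35 in control cells. Cd79a, part of the B cell receptor, measured 4.69 and 4.31 in irradiated cells, against 3.79 and 4.21 in control cells. Ptprc, which encodes the pan-leukocyte protein CD45, measured 5.57 and 5.49 in irradiated cells, against 5.63 and 5.64 in control cells. The summed linear signal of the T lymphocyte markers was 651 and 550 in irradiated cells, against 669 and 653 in control cells, and that of the B lymphocyte markers 461 and 453 in irradiated cells, against 467 and 474 in control cells. Of 13 pan-leukocyte markers 9 were lower and 4 higher, and their sum was 6854 and 8145 in irradiated cells, against 4988 and 5236 in control cells. Lcp1 and Arhgdib were bright, with differences of 0.625 and 0.67, and without them the other 11 pan-leukocyte markers summed to 691 and 595 in irradiated cells, against 728 and 777 in control cells. Cd52, a surface gene of leukocytes, had the largest difference of the list, at 5.58 and 5.44 in irradiated cells, against 6.23 and 6.31 in control cells, or −0.76. Hcls1, a gene of a cytoskeletal protein of blood cells, differed by −0.42. The markers that define lymphocytes were dim in the same RNA in which the simple keratin genes were bright.

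Mesothelial cells are the host cells of the cavity known for simple keratins. Of 12 measured mesothelial markers other than the keratins, 3 reached the median gene in control cells, 6 were lower and 6 higher in irradiated cells, and their median difference was 0.00. Msln, the gene of mesothelin, measured 7.60 and 6.77 in irradiated cells, against 7.93 and 7.77 in control cells. Bnc1, a transcription factor gene, measured 10.29 and 9.81 in irradiated cells, against 9.44 and 9.40 in control cells. Wt1, a defining transcription factor gene of mesothelium, measured 6.32 and 6.14 in irradiated cells, against 6.25 and 6.16 in control cells. The summed linear signal of the 12 was 2083 and 1559 in irradiated cells, against 1541 and 1491 in control cells. Without Bnc1 the other 11 summed to 831 and 662 in irradiated cells, against 846 and 816 in control cells, and these values overlapped. Muc16 was the dimmest of the list, at 3.61 on a control array, and no array signal is a true zero.

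Of 14 neutrophil markers, 11 were lower and 3 higher, where 56.0% of all genes were lower, and the median difference was −0.565. By the looser rule 7 were lower and 2 higher, where 0.672% of all genes were lower and 1.7% higher. The summed linear signal of the 14 was 5690 and 4915 in irradiated cells, against 1688 and 1825 in control cells. Ly6g, a surface gene of neutrophils, measured 12.04 and 11.89 in irradiated cells, against 8.87 and 8.82 in control cells, and without it the other 13 summed to 1478 and 1120 in irradiated cells, against 1220 and 1373 in control cells. Retnlg, a secreted product of neutrophils, measured 5.12 and 4.72 in irradiated cells, against 7.19 and 7.85 in control cells, and Il1r2, a decoy receptor gene, differed by −1.225. Mmp9, a protease gene, differed by 1.285. Ly6g was the 1 gene of all 19938 past the adjusted threshold in limma. Of 13 macrophage markers, 5 were lower and 8 higher, with a median difference of 0.01 and a summed signal of 1518 and 1378 in irradiated cells, against 1354 and 1370 in control cells. Mrc1, the gene of the mannose receptor, measured 6.92 and 6.98 in irradiated cells, against 6.09 and 6.01 in control cells. Lyz2, a lysozyme gene, differed by 0.57 and Csf1r, the gene of the receptor for macrophage colony-stimulating factor, by −0.52, also without overlap. The part of host cells in the keratin differences was not tested.

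The pattern of Krt7 over the 4 arrays was set beside 9972 other genes at or above the median signal, by the Euclidean distance between deviations from each gene's own mean. Nearest were Fhdc1, a formin gene, Adm, the gene of adrenomedullin, and Krt19, at distances of 0.28, 0.28 and 0.36. Fhdc1 measured 9.03 and 8.06 in irradiated cells, against 9.87 and 9.94 in control cells. Adm measured 8.21 and 7.37 in irradiated cells, against 9.01 and 9.01 in control cells. With 4 arrays many genes can share such a pattern.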

How the data were processed

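Total RNA (300 ng per array) of DLA cells was measured on 4 one-colour arrays, 2 irradiated and 2 control. The authors deposited log2 intensities per probe set, made with RMA per the submitters' processing notes, which name no version. No source used here names a genome build for that step. The table held 35556 probe sets and 0 columns of other samples. Scan dates and slides were not used here, so batches were not tested, and the number of arrays limits the precision.

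Probe sets were named from the platform annotation, with symbols updated through the RefSeq table of GRCm38.p6, which also gave positions and promoters. Of them 21789 had 1 symbol, 1621 several and 12146 were not listed, and 21698 matched the RefSeq table. The brightest probe set was kept for each of 999 genes with several, which left 19938 genes.

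The comparison of irradiated with control arrays used limma 3.58.1 in R 4.3.3 (two-sided, 2 residual and 3.48 prior degrees of freedom) with Benjamini-Hochberg adjustment over all genes. The fit was also run on simulated data with the same spread in both groups, unlike these arrays. No result here rests on that run. Nothing in the sources says whether replicates came from separate mice. The p-values set each difference against the spread between replicates, partly shared over all genes, and what these replicates stand for is not known. The genes and lists were chosen with earlier results of these data known. All 10 genes were to be named, with up to 4 genes of each other list that had the largest difference without overlap, and the 3 genes nearest to the one with the largest difference. Other genes named, among them Krt5, Krt14, Krt1, Krt20, Lmna, Cldn6, Tjp1, Cdh3, Dsg2, Dsc2, Ctnna1, Ctnnd1, Jup, Snai1, Cd3e, Ptprc and Wt1, were chosen after their values were seen or as defining markers. Alternatives were other normalizations, filters, variance models, the mean of probe sets, the replicate block and each array left out. Marker sums without single genes were added after seeing the data.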

Additional observations from a re-analysis of the deposited data

How the results depend on the processing

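Of 116 values of the 10 genes under 12 alternatives, 3 had another sign than the fit of all arrays, namely Vim at 0.05 without irradiated replicate 2, and Cdh1 and Ocln at 0.02 each without control replicate 1. The filters, the variance models, the mean of probe sets and the replicate block could not change these differences. Each of the 10 genes had 1 probe set, and the groups were balanced over replicate numbers. Only the other normalizations and the fits with 1 array left out could change them. In these the 4 keratins and Epcam stayed lower and Cldn4 higher. The count of lower genes was 9 of 10, and 7 to 9 when 1 array was left out. Filters on dim genes removed Ocln at the 25th percentile, and Ocln, Cdh1 and Cldn7 at the median. Ly6g was the 1 gene past the adjusted threshold in limma. That count was 0 with the replicate number as a block (1705 genes at an unadjusted p under 0.05) and 0 whenever 1 array was left out (381 to 5924 genes). The count under the looser rule, 473, ran from 315 without control replicate 1 to 1558 without irradiated replicate 1. Of the 10 genes, 4 were lower by that rule. In alternatives chosen after seeing the data this was 0 to 5 when 1 array was left out (0 without irradiated replicate 2, control replicate 1 or control replicate 2), 2 with arrays centred on the median, 3 with the replicate block, and 3 or 4 in the others. The count over all genes was 476 with the replicate block, which left the differences of the 10 genes as they were. Same-numbered arrays deviated with a correlation of 0.07 across genes, and the 2 pairs share only a number. No background measure was used here, so what dim signals hold is not known.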

Other observations

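Trophoblast, the outer epithelium of the early embryo and placenta, is another tissue known for Krt7, Krt8 and Krt18. Of 15 measured trophoblast markers other than these keratins, 8 reached the median gene in control cells. In irradiated cells 7 were lower and 8 were higher or, for Gata2, equal, and the median difference was 0.00. Prl8a9, a gene of the placental prolactin family, had the largest difference, 3.575, carried by irradiated replicate 2, at 5.21 and 11.47 in irradiated cells, against 4.87 and 4.66 in control cells. Without that array its difference was 0.445. The summed linear signal of the 15 was 18740 and 18785 in irradiated cells, against 12997 and 12566 in control cells. Without Plet1, the brightest, it was 3974 and 6540 in irradiated cells, against 3907 and 3786 in control cells, and without Prl8a9 it was 18703 and 15949 in irradiated cells, against 12967 and 12541 in control cells. Plet1, a surface gene of early trophoblast, measured 13.85 and 13.58 in irradiated cells, against 13.15 and 13.10 in control cells. Eomes, a transcription factor gene of trophoblast stem cells and of some lymphocytes, measured 10.28 and 10.42 in irradiated cells, against 10.02 and 9.95 in control cells. Ets2, a transcription factor gene, differed by −0.395. Tpbpa, a marker of the spongiotrophoblast, was dim, at 3.50 and 4.27 in irradiated cells, against 3.73 and 4.02 in control cells. These genes were without a call at the adjusted threshold in limma, and Tpbpa was chosen after its values were seen. Endothelial markers stayed dim, with 1 of 10 at or above the median gene in control cells and differences from −0.26 to 0.18.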
